A study of Mus musculus with 12 samples.

Results

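The 9 genes described here encode proteins of central myelin or of the oligodendrocytes that make it: Mbp, Mobp, Cnp, Mag, Mog, Cldn11, Opalin, Ermn and Myrf. They were taken by symbol from a table of 45906 genes measured in whole mouse spinal cord, and all 9 were found. After a filter on low counts 20155 genes were tested, and all 9 passed that filter at high counts in every genotype. In the RefSeq annotation of GRCm38.p6, Mag lies at chr7:30899175-30914922 on the minus strand, Mog at chr17:37010740-37023398 (minus), Mobp at chr9:120149742-120181488 (plus), Cnp at chr11:100574909-100591875 (plus), Cldn11 at chr3:31149920-31164326 (plus), Opalin at chr19:41061959-41077113 (minus), Myrf at chr19:10208271-10240777 (minus), Ermn at chr2:58045115-58052864 (minus) and Mbp at chr18:82475091-82585637 (plus).

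The libraries were polyadenylated RNA from the spinal cords of 12 mice aged 7 months, 3 in each of 4 genotypes on a C57BL/6 background: Plekhg5+/+, Plekhg5-/-, Plekhg5+/+ SOD1-G93A and Plekhg5-/- SOD1-G93A. Plekhg5 is a guanine exchange factor whose loss causes lower motoneuron disease, and SOD1-G93A is a human SOD1 transgene with an amyotrophic lateral sclerosis mutation, here in the low copy line with its slow disease course. The design asks how loss of Plekhg5 alters the spinal cord of SOD1-G93A mice. Each of the 4 pairwise comparisons below shares its libraries with others, so their results are not independent of each other.

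The libraries held 30415643 to 38743628 counts. Plekhg5 was at 22.9 ± 3.08 CPM (counts relative to the library size, which edgeR's trimmed mean of M values rescales; SD, n = 3) in Plekhg5+/+ and 22.4 ± 2.19 CPM in Plekhg5+/+ SOD1-G93A mice, against 3.98 ± 0.712 CPM in Plekhg5-/- and 4.26 ± 0.413 CPM in Plekhg5-/- SOD1-G93A mice. Human SOD1 was at 4421 to 5638 CPM in the 6 transgenic libraries and at 0.153 to 5.47 CPM in the other 6. Sex was not balanced: Y-linked transcripts were found in 3 of 3 Plekhg5+/+, 2 of 3 Plekhg5-/-, 2 of 3 Plekhg5+/+ SOD1-G93A and 1 of 3 Plekhg5-/- SOD1-G93A libraries.

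Oligodendrocytes wrap axons of the brain and spinal cord in a compact membrane, which speeds conduction, and they also feed the axon. Myelin basic protein zips the cytoplasmic faces of that membrane together, adhesion proteins hold it to the axon, and the transcription factor Myrf, with Sox10, switches on the genes of the mature cell. In SOD1 mutant mice oligodendrocytes of the spinal cord are known to degenerate and to be replaced, which makes their transcripts of interest in this tissue.

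The upstream sequences of 3 members are shown because these genes behaved differently below: Opalin was the only member called changed, Mag had the lowest unadjusted p among the members when the SOD1-G93A genotypes were compared with each other, and Mobp was lower where most others were higher. Each line gives the 250 bases before an annotated transcript start, 5′ to 3′ on the gene's strand, from RefSeq on GRCm38.p6. Capitals mark matches, on either strand, to a Myrf motif (CTGGCAC or CTGGTAC) or a Sox motif (ACAAAG or ACAATG). The windows are chr19:41077114-41077363 (minus) for Opalin, chr7:30914923-30915172 (minus) for the outermost of 3 annotated starts of Mag and chr9:120149492-120149741 (plus) for Mobp.
Opalin: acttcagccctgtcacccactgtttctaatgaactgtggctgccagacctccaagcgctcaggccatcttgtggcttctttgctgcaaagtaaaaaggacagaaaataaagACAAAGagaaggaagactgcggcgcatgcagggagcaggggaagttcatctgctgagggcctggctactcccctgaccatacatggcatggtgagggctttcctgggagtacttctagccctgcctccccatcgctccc
Mag: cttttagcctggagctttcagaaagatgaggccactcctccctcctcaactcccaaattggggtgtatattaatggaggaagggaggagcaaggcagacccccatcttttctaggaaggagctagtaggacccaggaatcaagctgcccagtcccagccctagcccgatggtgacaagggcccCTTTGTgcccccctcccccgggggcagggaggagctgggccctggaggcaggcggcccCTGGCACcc
Mobp: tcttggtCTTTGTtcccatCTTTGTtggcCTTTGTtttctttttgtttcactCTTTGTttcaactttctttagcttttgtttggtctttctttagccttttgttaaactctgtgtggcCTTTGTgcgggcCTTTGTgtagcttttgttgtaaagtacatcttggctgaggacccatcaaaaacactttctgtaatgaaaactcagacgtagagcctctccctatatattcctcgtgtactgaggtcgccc

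Of all 32851 mouse windows of this length, 5.93% held a Myrf motif and 25.2% a Sox motif, so the Sox letters are common. Opalin had 1 Sox match, at -139 from the transcript start, and 0 Myrf matches. The Mag window had a Myrf match at -9 and a Sox match at -67, and of the windows of its other starts one, which overlaps it, held the same matches and the other, at chr7:30914322-30914571, held 0 of either. Mobp had 6 Sox matches, from -243 to -120, and 0 Myrf matches. Of the other members with a window, Cnp had a Myrf match at -81 and a Sox match at -167, Mog a Myrf match at -83, Ermn a Sox match at -234 and Cldn11 neither. A match of letters is not a measured binding site.

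Expressed per transcript length, as TPM (transcripts scaled to a fixed sum per library), the members spanned a range from one of the most abundant messenger RNAs of the tissue to a moderate one. Mbp had a median of 5438 TPM over the 12 libraries (4836 to 6604) and ranked 5 among all 45906 genes measured. Mobp, a small basic protein of compact myelin, followed at 1750.5 TPM (1413 to 1917, rank 37). Cnp, a phosphodiesterase of the cytoplasmic channels in myelin, was at 830 TPM (735 to 1013), and Mag, the adhesion protein on the inner face towards the axon, at 807 TPM (705 to 944). Those ranges overlapped, and Cnp stood above Mag in 10 of 12 libraries. Cldn11, the claudin of the tight junctions within myelin, was at 596 TPM (543 to 727), Ermn, a cytoskeletal protein of mature oligodendrocytes, at 357 TPM (327 to 453), and Mog, a protein of the outermost myelin surface, at 285 TPM (253 to 359). Myrf was at 117 TPM (111 to 130), and Opalin, a glycosylated membrane protein found in central but not peripheral myelin, was lowest at 54.9 TPM (30.7 to 67.7). The ranges of Mag and Cldn11 and of Ermn and Mog touched, yet the order held in all 12 libraries for both pairs.

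Opalin was the member that differed most between genotypes. It was at 24.4, 24.6 and 35.7 CPM in the 3 Plekhg5+/+ mice, at 48.2, 42.7 and 48.9 CPM in Plekhg5-/- mice, at 49.4, 48.8 and 45.8 CPM in Plekhg5+/+ SOD1-G93A mice, and at 39.5, 31.5 and 39.5 CPM in Plekhg5-/- SOD1-G93A mice. Every mouse with a single one of the 2 alterations, the transgene or the Plekhg5 deletion, was above every Plekhg5+/+ mouse, while the mice with both lay between and overlapped the highest Plekhg5+/+ mouse. Its highest library was 2.02 times its lowest, against 1.17 times for Myrf and 1.41 to 1.52 times for the other 7 members. Between 781 and 1647 reads stood behind each Opalin value, and all were whole numbers, unlike the fractions that arise where a read is split between places or genes.

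With Plekhg5 present, Opalin was higher in SOD1-G93A mice, while no other member passed the test. Opalin rose by 0.76 on the log2 scale (SE 0.135), which is 1.70-fold (95% interval 1.39 to 2.08), with an adjusted p of 0.0165 in edgeR's quasi-likelihood test. It was the 1 of 9 members called, where 2.47% of all genes tested were called in this comparison (422 higher and 76 lower in SOD1-G93A). Without Plekhg5+/+ replicate 1 the difference was 0.67 (adjusted p 0.0743, edgeR), and without Plekhg5+/+ replicate 2 it was 0.67 (adjusted p 0.0987), so the call needs both of these control libraries, in which Opalin was lowest. Without either of them few genes were called at all in this comparison, 4 without replicate 1 and 2 without replicate 2, instead of 498. With only the 2 genotypes in the fit the adjusted p was 0.0814, for a difference of 0.75. Of 22 other settings in all, 19 kept the call and these 3 lost it.

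Mbp, Mobp and Cnp did not pass the test. Mbp was at 13862, 11712 and 11880 CPM in Plekhg5+/+ mice and at 11705, 12334 and 13825 CPM in Plekhg5+/+ SOD1-G93A mice. The genotypes overlapped, and the interval of the log2 difference, -0.23 to 0.26, excludes a change as large as that of Opalin. Mobp was at 4100, 3757 and 3833 CPM in Plekhg5+/+ and at 2997, 3389 and 3649 CPM in Plekhg5+/+ SOD1-G93A mice, with every transgenic mouse below every control mouse. Its log2 difference was -0.22 (SE 0.0874), with an unadjusted p of 0.026 and an adjusted p of 0.202 in edgeR's quasi-likelihood test. Cnp, at 897 ± 50.9 CPM against 965 ± 103 CPM (SD, n = 3), overlapped between the genotypes.

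None of the adhesion and junction proteins passed the test. Mag was at 724, 679 and 662 CPM in Plekhg5+/+ mice and at 751, 814 and 811 CPM in Plekhg5+/+ SOD1-G93A mice, all above the controls. Its log2 difference was 0.20 (SE 0.0889), with an adjusted p of 0.252 in edgeR's test. Cldn11 was at 376, 318 and 349 CPM in controls and at 445, 378 and 460 CPM in the transgenic mice, again without overlap, although the lowest transgenic mouse exceeded the highest control by little. Its log2 difference was 0.30 (SE 0.115), with an adjusted p of 0.19 in edgeR's test. Mog, at 202 ± 17.2 CPM against 222 ± 31.0 CPM (SD, n = 3), overlapped.

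Neither Ermn nor Myrf separated these genotypes. Ermn was at 556, 426 and 411 CPM in Plekhg5+/+ mice and at 413, 415 and 448 CPM in Plekhg5+/+ SOD1-G93A mice, so the control mean was set by 1 high library. Myrf was at 220, 233 and 199 CPM in controls and at 223, 223 and 222 CPM in the transgenic mice. In all, 4 of the 9 members did not overlap between Plekhg5+/+ SOD1-G93A and Plekhg5+/+ cords, Mag, Cldn11 and Opalin being higher and Mobp lower, where 20.6% of all genes tested did not overlap. The median log2 difference of the members was 0.11, beside -0.00 over all genes. In bulk tissue, fewer cells of a type and less RNA per cell cannot be told apart.

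**Figure D1:**
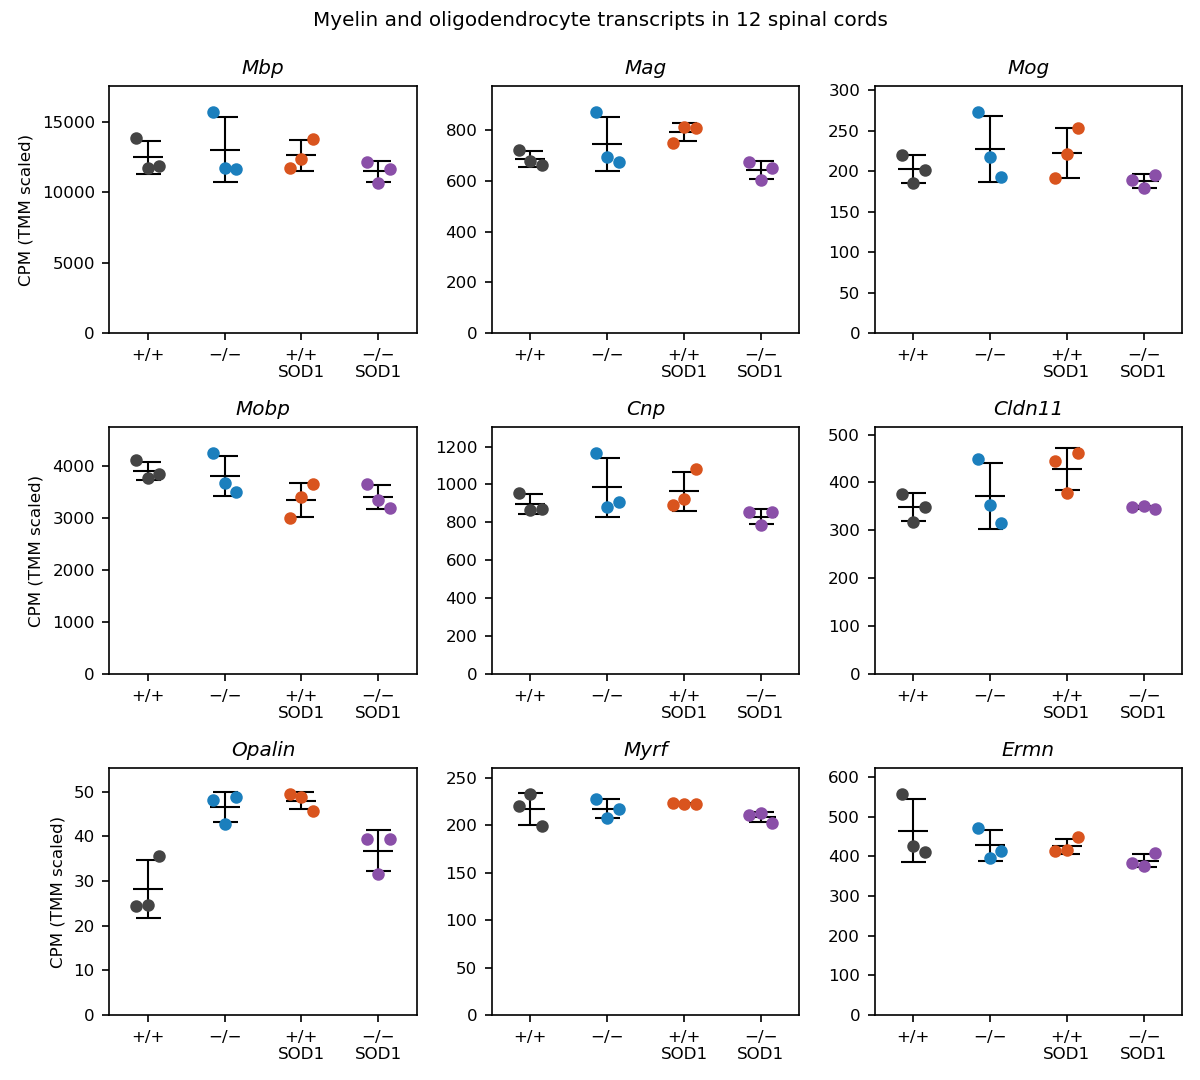
CPM of each of the 9 members by mouse (points, 3 mice per genotype; bars, mean and SD; vertical axes differ between panels). Opalin is at 24.4 to 35.7 CPM in Plekhg5+/+ mice and at 42.7 to 49.4 CPM in Plekhg5-/- and Plekhg5+/+ SOD1-G93A mice, while the 4 genotypes overlap for Mbp.

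Between the SOD1-G93A genotypes, 8 of the 9 members were lower on average without Plekhg5, yet none was called. Across all genes tested 0.0347% were called in this comparison. Mag was at 676, 605 and 650 CPM in Plekhg5-/- SOD1-G93A mice, all below the 751 to 814 CPM of the Plekhg5+/+ SOD1-G93A mice. Its log2 difference was -0.30 (SE 0.0889), with an unadjusted p of 0.00524 and an adjusted p of 0.422 in edgeR's quasi-likelihood test.

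Cldn11 was at 348, 350 and 345 CPM in Plekhg5-/- SOD1-G93A mice, a narrow range at the level of the Plekhg5+/+ mean of 348 CPM. Its log2 difference from Plekhg5+/+ SOD1-G93A was -0.30 (SE 0.115, adjusted p 0.517, edgeR). Opalin differed by -0.38 (95% interval -0.67 to -0.09, adjusted p 0.517, edgeR), and its highest Plekhg5-/- SOD1-G93A mouse lay below the lowest Plekhg5+/+ SOD1-G93A mouse. Cnp was at 852, 786 and 854 CPM against 890, 923 and 1082 CPM, also without overlap.

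Myrf and Ermn completed the 6 of 9 members that did not overlap in this comparison, all lower without Plekhg5, where 19.5% of all genes tested did not overlap. Their differences were small, at -0.09 for Myrf and -0.13 for Ermn on the log2 scale. Mbp was at 12122, 10685 and 11687 CPM in Plekhg5-/- SOD1-G93A mice and overlapped with Plekhg5+/+ SOD1-G93A, as did Mog at 188, 179 and 195 CPM. Mobp was the exception in direction, at 3643, 3343 and 3195 CPM and a log2 difference of 0.02, and this sign turned without Plekhg5+/+ SOD1-G93A replicate 1 (-0.05). The median of the members was -0.22, beside -0.01 over all genes. Markers of other cells also differed here, none of them called by edgeR: 12 of 12 microglial genes were lower without Plekhg5 (median -0.88, 11 with an unadjusted p under 0.05), 9 of 9 endothelial genes were higher (median 0.49, 7 with an unadjusted p under 0.05) and 15 of 15 neuronal genes were higher (median 0.14, 4 with an unadjusted p under 0.05). Summed, the microglial genes were at 781 to 1531 CPM with and 574 to 639 CPM without Plekhg5. Their part in the differences of the members was not tested.

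Without the transgene, loss of Plekhg5 was accompanied by a higher level of Opalin and by little difference in the other members. The Opalin difference between Plekhg5-/- and Plekhg5+/+ was 0.72 (SE 0.135, 95% interval 0.43 to 1.01) on the log2 scale, about the size seen with SOD1-G93A. It had an unadjusted p of 0.000141 and an adjusted p of 0.236 in edgeR's test, and so was not called, where 0.0298% of all genes tested were. DESeq2 gave the same log2 difference of 0.72 with an adjusted p of 0.000607, and without Plekhg5+/+ replicate 3, the highest control, edgeR gave 0.92 with an adjusted p of 0.00538. Over all omissions of one library the difference was 0.63 to 0.92, and only the omission of this highest control led to a call by edgeR. Opalin was the 1 of 9 members that did not overlap, against 8.71% of all genes.

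The other 8 members differed by -0.12 to 0.17 on the log2 scale between Plekhg5-/- and Plekhg5+/+ cords, with adjusted p-values of at least 0.989 in edgeR's test. Plekhg5-/- replicate 1 was the highest of its genotype in 8 of the 9 members. Mbp was at 15676 CPM in that mouse, against 11759 and 11655 CPM in the others, and Mag at 871 CPM against 694 and 675 CPM. Cnp was at 1163 CPM against 882 and 909 CPM, Cldn11 at 449 CPM against 353 and 315 CPM, and Mog at 272 CPM against 217 and 192 CPM. Mobp was at 4235, 3674 and 3501 CPM and Ermn at 472, 397 and 415 CPM in replicates 1 to 3. Myrf spanned 208 to 228 CPM, within its range in Plekhg5+/+ mice. Without Plekhg5-/- replicate 1 the log2 difference of Mbp from Plekhg5+/+ was -0.09 instead of 0.06, and that of Mag -0.01 instead of 0.12.

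When SOD1-G93A was compared in the absence of Plekhg5, all 9 members were lower on average in the transgenic mice, by 0.06 (Myrf) to 0.34 (Opalin) on the log2 scale, and none was called. Of all genes tested 0.00496% were called, which was human SOD1 alone by edgeR (1084 genes had an unadjusted p under 0.05, and DESeq2 called 45). Cnp, at 1163, 882 and 909 CPM without and 852, 786 and 854 CPM with the transgene, and Opalin did not overlap, against 12.5% of all genes. The log2 difference of Opalin was -0.34 (SE 0.133, adjusted p 0.866, edgeR). The median of the members was -0.18, beside -0.00 over all genes. These differences lean on Plekhg5-/- replicate 1, the highest of its genotype in 8 of the 9 members. Without that mouse Cldn11 was 0.05 instead of -0.10. Over all omissions of one library Mbp was at -0.26 to -0.03 and Mag at -0.28 to -0.10, and only Cldn11 changed sign.

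**Figure D2:**
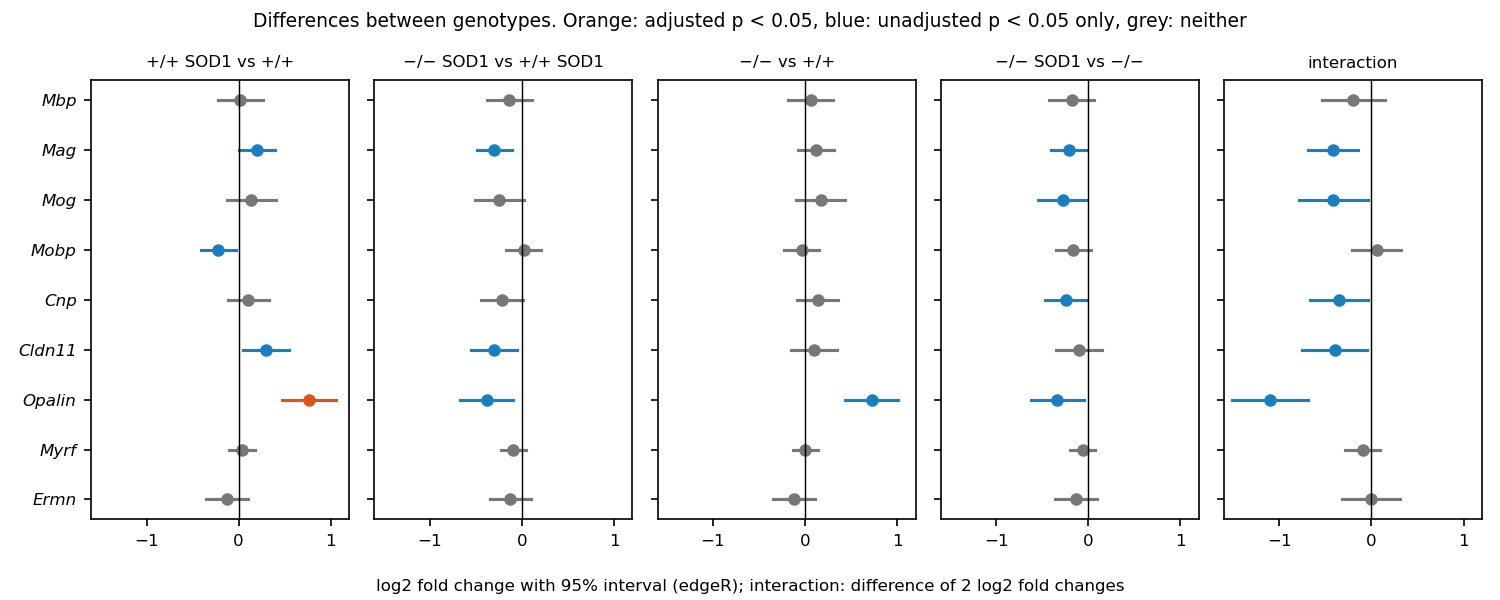
Log2 difference of each member in the 4 pairwise comparisons and in the interaction (points, edgeR estimates; bars, 95% intervals; orange, adjusted p under 0.05; blue, unadjusted p under 0.05 only; grey, neither). For Opalin the intervals are 0.47 to 1.06 for SOD1-G93A and 0.43 to 1.01 for Plekhg5 loss against Plekhg5+/+, and its interaction is -1.10, the farthest from 0 among the members.

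Whether the effect of the transgene depended on Plekhg5 was tested by the interaction in the same edgeR fit, and 0% of all genes passed (1824 had an unadjusted p under 0.05; DESeq2 called 95). Opalin had the largest interaction of the members at -1.10 (SE 0.189, 95% interval -1.51 to -0.69), with an unadjusted p of 6.53e-05 and an adjusted p of 0.329. By DESeq2 the same value had an adjusted p of 0.00022, and without Plekhg5+/+ replicate 3 edgeR gave -1.29 with an adjusted p of 0.0101. The interactions of Mag (-0.42), Mog (-0.41), Cldn11 (-0.40) and Cnp (-0.35) had unadjusted p-values of 0.00581 to 0.0343 and adjusted p-values of 0.404 to 0.511 in edgeR's test. Those of Mbp (-0.20), Myrf (-0.10), Mobp (0.06) and Ermn (-0.01) had intervals that included 0.

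The members moved together from mouse to mouse, with 2 exceptions. After the genotype means were subtracted, the correlation of a member with the mean of the others over 12 libraries was 0.994 for Mbp, 0.962 for Cnp, 0.927 for Mag, 0.876 for Mog, 0.806 for Mobp, 0.738 for Cldn11 and 0.687 for Ermn. It was 0.21 for Myrf and -0.139 for Opalin. These values describe libraries whose members share a cell type, a depth and a scaling factor. Plekhg5-/- replicate 1, for instance, was high in most myelin transcripts at once, and Plekhg5+/+ replicate 1 was the highest of its genotype in 7 members.

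**Figure D3:**
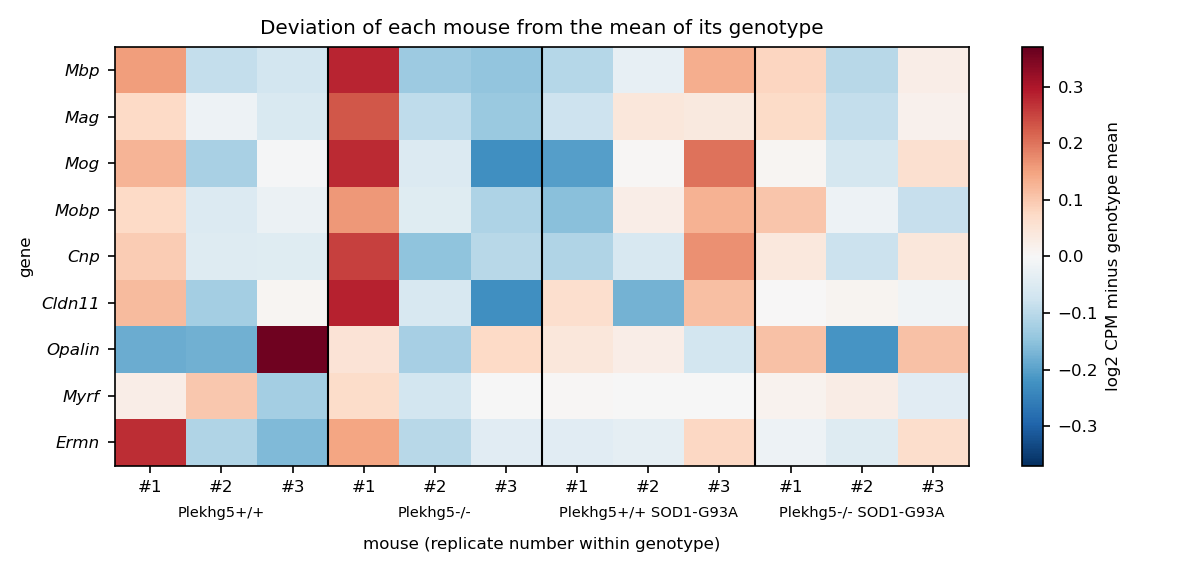
Deviation of each member from its genotype mean (log2 CPM) in the 12 libraries, grouped by genotype, with red above and blue below the mean. Most members rise and fall together within a genotype, with correlations of 0.687 to 0.994 with the mean of the others for 7 of them, and Opalin (-0.139) and Myrf (0.21) do not.

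Counts were also set against Mbp of the same library, as a description of values in part already shown. Per 1000 Mbp counts there were 1.76, 2.10 and 3.01 Opalin counts in Plekhg5+/+ mice, 3.07, 3.63 and 4.20 in Plekhg5-/- mice, 4.22, 3.96 and 3.31 in Plekhg5+/+ SOD1-G93A mice and 3.26, 2.95 and 3.38 in Plekhg5-/- SOD1-G93A mice. Every Plekhg5+/+ SOD1-G93A mouse was above every Plekhg5+/+ mouse for Opalin. Mag stood at 52.22, 58.01 and 55.73 in Plekhg5+/+ and at 64.13, 66.01 and 58.63 in Plekhg5+/+ SOD1-G93A mice. Mobp stood at 296, 321 and 323 against 256, 275 and 264, and Cldn11 at 27.1, 27.1 and 29.4 against 38.0, 30.6 and 33.3. The 2 genotypes did not overlap for these 4 members, with Mobp the lower in transgenic mice, nor for Cnp, whose lowest transgenic value was 74.87 and highest control value 74.00. They overlapped for Mog, Ermn and Myrf. The share of all genes that do not overlap on this ratio was not computed, and in CPM 20.6% did not overlap in this comparison.

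Markers of peripheral myelin differed between the libraries. The summed level of 6 Schwann cell genes (Pmp22, Prx, Cldn19, Ncmap, Drp2 and Egr2), found in nerve roots, was 365, 385 and 215 CPM in Plekhg5+/+ mice, 249, 225 and 253 CPM in Plekhg5-/- mice, 238, 317 and 290 CPM in Plekhg5+/+ SOD1-G93A mice and 409, 371 and 483 CPM in Plekhg5-/- SOD1-G93A mice. Pmp22 and Drp2 made up most of the sum, at means of 180 and 87.9 CPM in Plekhg5+/+ mice, against 38.9 CPM for Prx and less for the rest. The sums of Plekhg5-/- SOD1-G93A mice were all above those of Plekhg5-/- and of Plekhg5+/+ SOD1-G93A mice, and those of Plekhg5+/+ mice were spread. Replicate 3 of Plekhg5+/+ had the lowest sum of the 12 libraries and, at 35.7 CPM, the most Opalin of its genotype. The 6 genes had a median log2 difference of 0.80 between the SOD1-G93A genotypes, with an unadjusted p under 0.05 for 5 of 6, and none was called in any comparison.

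The summed Schwann cell level was also used as a covariate in the edgeR fit, a choice made after these values were seen. Opalin then differed by 0.73 instead of 0.76 for SOD1-G93A with Plekhg5 present (adjusted p 0.0303, edgeR). Its difference between the SOD1-G93A genotypes was then -0.16 instead of -0.38, that between Plekhg5-/- and Plekhg5+/+ was 0.61 (adjusted p 1, edgeR) instead of 0.72, that between Plekhg5-/- SOD1-G93A and Plekhg5-/- was -0.05 instead of -0.34, and the interaction was -0.77 (adjusted p 0.929, edgeR). For Mag the difference between the SOD1-G93A genotypes was -0.39 with the covariate and -0.30 without it. The Schwann cell sums of Plekhg5-/- SOD1-G93A mice did not overlap those of Plekhg5+/+ SOD1-G93A or Plekhg5-/- mice. In these comparisons the covariate and the genotype therefore cannot be told apart. The SE of Opalin with the covariate was 0.165 between the SOD1-G93A genotypes and 0.193 against Plekhg5-/-, where each was 0.133 without it.

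Few genes of the same lineage outside the 9 members were called, and the shares called in 2 of the lists were above the 2.47% of all genes. Of 15 other myelin membrane and adhesion genes, 2 were called higher in Plekhg5+/+ SOD1-G93A than in Plekhg5+/+ cords and none lower, with a list median of 0.17. These were Cd9, a tetraspanin that microglia also express (1.08, adjusted p 0.0271, edgeR), and Pllp, the myelin proteolipid plasmolipin (0.47, adjusted p 0.0391, edgeR). Pllp was at 111 ± 5.90 CPM in Plekhg5+/+, 143 ± 21.0 in Plekhg5-/-, 154 ± 8.43 in Plekhg5+/+ SOD1-G93A and 116 ± 13.5 in Plekhg5-/- SOD1-G93A mice (SD, n = 3), with the highest mean in Plekhg5+/+ SOD1-G93A and the next in Plekhg5-/- mice, as for Opalin and Mag. Cd9 did not share this order. It was at 63.4 ± 11.2, 70.3 ± 9.02, 134 ± 49.3 and 91.3 ± 2.79 CPM in the same genotypes, with Plekhg5-/- SOD1-G93A mice next to the highest.

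Among 16 other genes of mature oligodendrocytes, Il33, an alarmin that these cells hold in the nucleus (0.44, adjusted p 0.0465, edgeR), and Slc16a1, the transporter that passes lactate to axons (0.41, adjusted p 0.0311, edgeR), were called higher in the same comparison. Il33 was at 163 ± 9.57, 209 ± 36.9, 221 ± 14.8 and 177 ± 7.18 CPM in the genotypes in the order above. Slc16a1 was at 78.6 ± 4.23, 86.3 ± 4.85, 104 ± 14.1 and 85.9 ± 1.74 CPM. None of 6 myelin lipid enzymes, 6 transcription factors of the lineage, 8 genes of newly formed oligodendrocytes and 8 of progenitors was called, with list medians of 0.08, 0.02, 0.06 and 0.18. In the other 3 pairwise comparisons and the interaction no gene of these lists was called by edgeR.

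**Figure D4:**
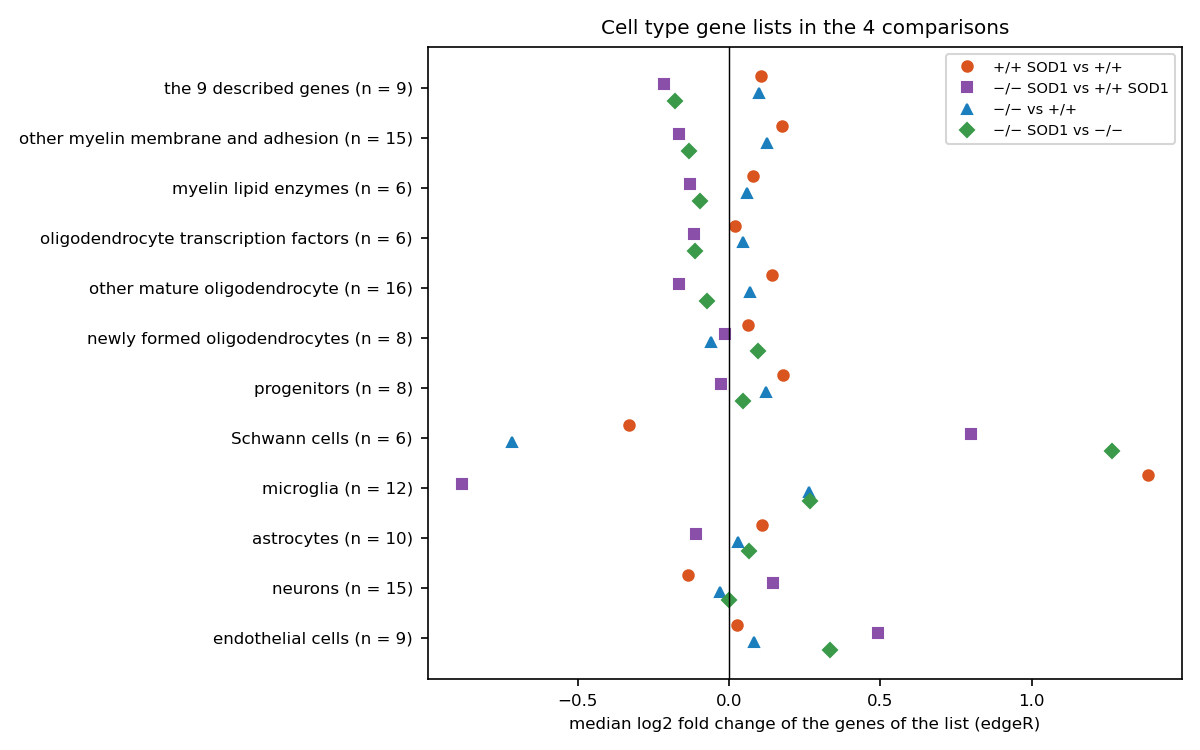
Median log2 difference (horizontal axis) of each gene list (rows, with the number of genes) in the 4 pairwise comparisons, 1 marker for each, for the 9 members, the other lists of the oligodendrocyte lineage and the markers of other cell types. In Plekhg5+/+ SOD1-G93A against Plekhg5+/+ the median is 0.11 for the members and 1.38 for microglia.

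Markers of other cells also differed in the comparison that called Opalin, where 2.47% of all genes were called. Of 12 microglial genes 11 were called higher in Plekhg5+/+ SOD1-G93A than in Plekhg5+/+ cords by edgeR (median 1.38), among them Fcrls (2.26), Trem2 (1.79), Tyrobp (1.68) and C1qa (1.57). Their summed level was 404 to 460 CPM in Plekhg5+/+ and 781 to 1531 CPM in Plekhg5+/+ SOD1-G93A mice, against 431 to 596 CPM in Plekhg5-/- mice, in which Opalin was at 42.7 to 48.9 CPM. Gfap (1.23) and Sox9 (0.81) were called among 10 astrocyte genes, and none of 15 neuronal or 9 endothelial genes was. Of the neuronal genes 14 of 15 were nevertheless lower (median -0.14, 7 with an unadjusted p under 0.05), with summed levels of 10950 to 12995 CPM against 13642 to 14078 CPM in Plekhg5+/+ mice. No defining marker in these lists was at 0, and the part of these other cells in the differences of the members was not tested.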

How the data were processed

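Polyadenylated RNA of 12 spinal cords was sequenced by the authors as stranded single-end libraries. They trimmed reads with Cutadapt 2.4, aligned them with STAR 2.7.2b to GRCm38.p6 with the human SOD1 cDNA added, and counted them per RefSeq gene with featureCounts 1.6.4. The values the authors deposited are estimated counts (expected counts per gene), because reads that map to several places or genes were split into fractions: 17.3 to 18.2% of entries per library were not whole. Counts were not whole in 10 of 12 libraries for Mbp, 9 for Mobp, 8 for Cnp, 11 for Ermn, 4 for Mog and 1 each for Mag and Myrf. These members therefore hold some reads that were split between places or genes.

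Counts were rounded and fitted with edgeR 4.0.16 (R 4.3.3), a robust quasi-likelihood fit of all 4 genotypes after the default filter on low counts, with TMM scaling. P-values were adjusted over 20155 genes by Benjamini-Hochberg, with 0.05 as the threshold. CPM used TMM-scaled library sizes, and TPM used the exon lengths in the deposited table. Depth was 30415643 to 38743628 counts per library, and 3 mice a genotype set the precision. Alternatives were DESeq2 1.42.0 with and without a prior, other filters and scaling, fewer libraries, a replicate block and the presence of Y-linked transcripts as a covariate. The Schwann cell gene level as a covariate was added after the values were seen. With the Y-linked covariate no call of a member changed. Replicate numbers were not used to pair the mice in the fit reported. Of 18 same-numbered pairs 9 had correlated deviations above 0.1 (range -0.294 to 0.588). The pairs of Plekhg5+/+ with Plekhg5-/- mice were all positive (0.588, 0.321 and 0.171 for replicates 1 to 3). Whether same-numbered mice shared a batch was not tested. Nothing in the labels ties them to a litter or day.

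The members and lists were chosen with earlier results of these data known. Named genes were the members, Plekhg5 and SOD1, up to 4 called genes with the largest change in each list, and the 5 genes whose pattern was most like that of the members. One gene of the Schwann cell list is not reported here and entered no sum.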

Additional observations from a re-analysis of the deposited data

Results flagged for a closer look

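For 4 members every transgenic library moved one way with Plekhg5 present and the other way without it, relative to the mean of the matching non-transgenic mice. The share of all genes tested that do so was not computed, so this count has no background to be read against. The interaction log2 differences were -1.10 for Opalin, -0.42 for Mag, -0.40 for Cldn11 and -0.10 for Myrf, and none passed the adjusted threshold in edgeR (adjusted p 0.329, 0.404, 0.505 and 0.715). As a difference of mean log2 CPM rather than an edgeR estimate, the effect of SOD1-G93A with and without Plekhg5 was 0.79 and -0.34 for Opalin, 0.20 and -0.21 for Mag, 0.30 and -0.08 for Cldn11 and 0.04 and -0.06 for Myrf. Values of Myrf differed by so little that its interval, -0.29 to 0.10, includes 0.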

How the results depend on the processing

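Single members were refitted under 22 other settings in each pairwise comparison and 21 in the interaction. Of these 981 values, 939 kept their direction and side of the threshold, 6 passed it, 3 no longer did and 33 changed sign. None of those that changed sign was called, and none exceeded 0.13 (log2) in the fit reported. The rise of Opalin in SOD1-G93A with Plekhg5 ranged from 0.56 to 0.96. Counts of changed genes depended strongly on the setting. In Plekhg5+/+ SOD1-G93A against Plekhg5+/+ there were 1145 at an adjusted p under 0.1, 1162 with DESeq2, 1199 with its prior, 3 with only the 2 genotypes (then 0 members), 170 with the Schwann covariate and 2 to 771 (members 0 to 1) without one library. Between the SOD1-G93A genotypes there were 72 with DESeq2, 112 with its prior, 11 with only the 2 genotypes and 4 to 8 without one library. In Plekhg5-/- against Plekhg5+/+ there were 34 with DESeq2 and 32 with its prior (1 member each, Opalin) and 5 to 59 (members 0 to 1) without one library. In Plekhg5-/- SOD1-G93A against Plekhg5-/- there were 45 and 41 with DESeq2 without and with the prior, 0 at 10 counts in every library, 20 with only the 2 genotypes and 1 to 9 without one library. For the interaction there were 95 and 114 (1 member each, Opalin), 1 with no filter and 0 to 40 (members 0 to 1) without one library. Causes were not tested.

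Myrf in Plekhg5-/- against Plekhg5+/+ was -0.0016 with DESeq2, -0.0015 with its prior, -0.00051 with DESeq2 size factors and -0.0058 with no filter. With the covariate Mobp was -0.023 between the SOD1-G93A genotypes and -0.016 in the interaction. Leaving out one library gave, for SOD1-G93A with Plekhg5, -0.055 to 0.10 for Mbp, -0.037 to 0.087 for Myrf and -0.22 to 0.023 for Ermn; for Plekhg5 loss alone, -0.091 to 0.14 for Mbp, -0.0066 to 0.18 for Mag, -0.12 to 0.021 for Mobp, -0.057 to 0.21 for Cldn11, -0.064 to 0.053 for Myrf and -0.21 to 0.031 for Ermn. It gave -0.053 to 0.088 for Mobp between the SOD1-G93A genotypes, -0.21 to 0.052 for Cldn11 in Plekhg5-/- SOD1-G93A against Plekhg5-/-, and interactions of -0.018 to 0.14 for Mobp and -0.16 to 0.086 for Ermn. With a replicate block Opalin rose by 0.78 (adjusted p 0.00802, edgeR) in SOD1-G93A with Plekhg5, 631, 8, 8, 1 and 0 genes changed in the comparisons in the order above, and the counts of members called were as reported. With 3 mice a genotype, differences of the size seen for Mag and Cldn11 did not pass adjustment over all genes.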

Other observations

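Over the 12 libraries and 13077 genes with a mean of at least 5 CPM, the genes whose log2 CPM followed the mean of the members most closely were Pno1 (r = 0.982), Aplp1 (0.974), Ptpa (0.966), Plekhb1 (0.959), another gene of mature oligodendrocytes, and Mrpl13 (0.952). After the genotype means were subtracted they were Ckb, the brain creatine kinase (0.985), Stard10 (0.984), Arl2 (0.983), Atp6v0e2 (0.980) and Aig1 (0.980). The lists have no gene in common, and the values describe 12 libraries that share depth and composition.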
